A study of Sus scrofa with 8 samples.

Results

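ERBB receptors on heart muscle cells and other cells respond to neuregulins, and pass the signal on through the ERK and AKT kinase pathways. GGF2, glial growth factor 2, is one of the forms in which neuregulin-1 is made. In the heart, neuregulin-1 comes mainly from endothelial cells, and its receptors are needed for the growth and upkeep of muscle cells. The comparison described here set the arrays of pigs given the high dose of GGF2 against those of pigs given the low dose, across all genes on the array, and asked what distinguished the larger dose from the smaller one. It used 5 of the 8 arrays of the study, chosen by the treatment named for each animal: 2 from high-dose animals and 3 from low-dose animals. The other 3 arrays came from untreated animals, entered the estimate of the spread and are shown for reference.

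All 8 animals were castrated male Yorkshire swine under 1 year of age, with a mean weight of 54.5 kg, and all had undergone myocardial infarction, the untreated ones included. The low dose was 0.67 mg/kg in each infusion and the high dose 2.0 mg/kg, both over 4 weeks, and how the untreated animals were handled is not given beyond that word. Tissue was left ventricle remote from the infarct, and each array held RNA from a different pig. The model has limits that follow from these labels: each dose rests on 2 or 3 animals, and whole tissue holds many cell types. The 2 high-dose pigs carry consecutive tag numbers, as do 2 of the untreated pigs, and the 3 low-dose pigs do not among themselves. Across groups, low-dose replicate 1 and untreated replicate 2 are also consecutive. What these numbers stand for is not given in the sources used here.

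The arrays resembled heart muscle. Of 14 measured cardiomyocyte markers none lay below an array's lower quartile, and their mean level was 13.71 to 13.77 in the low-dose animals and 13.81 to 13.84 in the high-dose animals on the log2 scale. Array medians lay between 5.34 and 5.39, and values below the lower quartiles of 3.72 to 3.80 are close to background. Across probe sets, the high-dose arrays correlated at 0.992 with each other, the low-dose arrays at 0.985 to 0.987, and high-dose with low-dose arrays at 0.981 to 0.988. The arrays also carry control probe sets at the 3' and 5' ends of actin and GAPDH transcripts, and a wider gap between the ends is a sign of shorter RNA or less complete labelling. The mean gap over 4 control pairs was 2.81 to 3.22 log2 units in the low-dose animals and 2.59 to 2.71 in the high-dose animals, with no overlap and a difference of -0.32 (exact permutation test, two-sided, p = 0.2, the smallest p that 3 animals against 2 can give). For 1 actin pair alone the gap lay between 5.48 and 6.04 in low-dose and between 4.92 and 5.18 in high-dose animals, while the other actin pair overlapped. The untreated animals, at 2.52 to 2.99, overlapped both doses, so the gap did not follow the dose across the 3 groups. Its part in the differences below was not tested beyond a fit that holds it as a covariate.

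**Figure D1:**
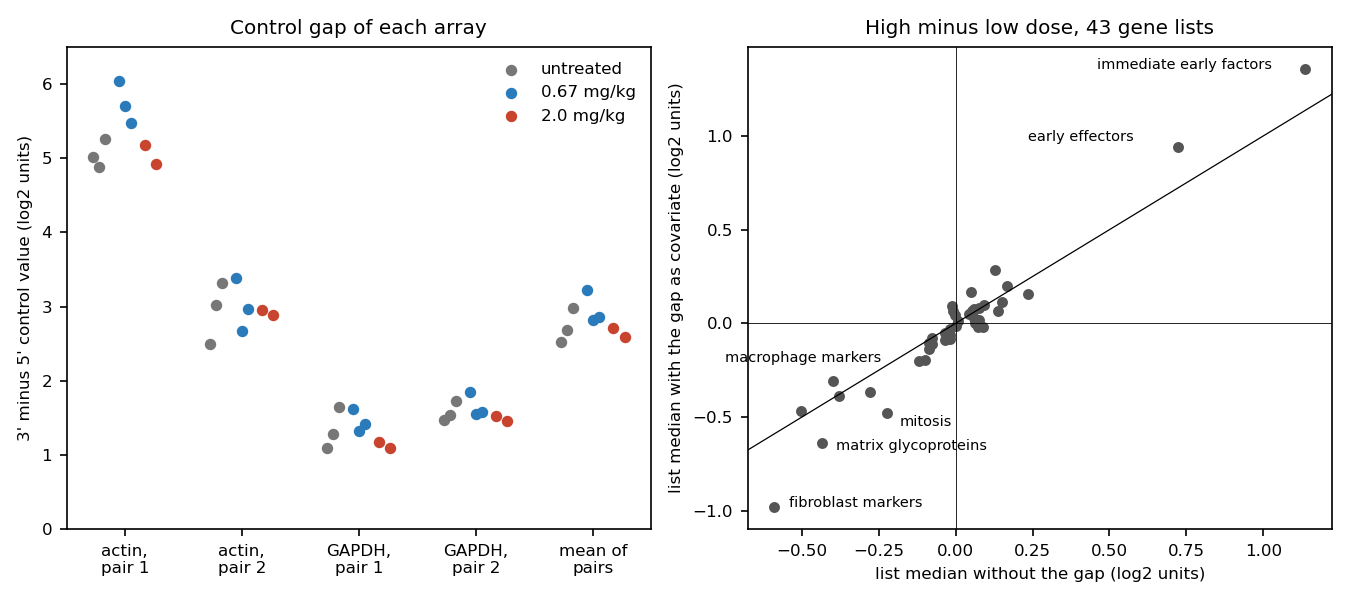
Left, difference between 3' and 5' control values in log2 units for each array (points, coloured by group), for 4 control pairs and their mean. The mean gap was 2.81 to 3.22 in low-dose and 2.59 to 2.71 in high-dose animals. Right, median difference between high and low dose of each of 43 gene lists in log2 units, without (horizontal) and with (vertical) the mean gap as a covariate; the diagonal marks equal values, and fibroblast markers moved from -0.59 to -0.98.

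In single genes the contrast was modest. Of 23999 probe sets, 6 passed at a limma adjusted p under 0.05 (0.0250%), 1 higher and 5 lower at the high dose, and none of the 6 carries a gene symbol in the annotation used. Probe set Ssc.14284.1.A1_at measured 8.93, 9.11 and 9.32 in the low-dose animals and 6.52 and 7.17 in the high-dose animals, a fall of 4.84-fold (limma adjusted p = 0.0378). Ssc.9939.1.A1_at measured 5.18, 5.82 and 5.76 at the low dose and 3.54 and 3.64 at the high dose (limma adjusted p = 0.0378). The probe set that rose, Ssc.9019.1.A1_at, measured 3.30, 3.29 and 3.29 at the low dose, which is below the lower quartile, and 4.87 and 4.76 at the high dose (limma adjusted p = 0.0431). None of these 6 calls remained with the control gap as a covariate, where the smallest adjusted p was 0.0755, or in the fit of the 5 treated arrays alone, where it was 0.109. They also all ended without high-dose replicate 1, without low-dose replicate 2 or 3, and without untreated replicate 1 or 3, and 1 call was left without high-dose replicate 2.

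More probe sets reached a small unadjusted p without passing. An unadjusted p under 0.05 was reached by 2455 probe sets, against 1200 expected by chance, with 1052 higher and 1403 lower at the high dose. That split depended on the scaling: it was 1493 higher and 1116 lower with each array centred on its median, and 1270 and 1278 after renewed quantile normalization. Counted over 6765 named genes, each by its brightest probe set, 366 (5.41%) were higher and 392 (5.79%) lower at an unadjusted p under 0.05. In 104 genes (1.54%) both high-dose values lay above all low-dose values with a mean difference of at least 1.5-fold, and in 198 (2.93%) both lay below. The median difference over all named genes was 0.02, and 54.1% were higher. These shares are the background for the gene lists that follow. With no minimum difference, 6297 of the 23999 probe sets did not overlap between the doses, 3179 higher and 3118 lower. Absence of overlap at a small difference was therefore common. Since no probe set with a gene symbol passed the adjusted threshold, the genes are described as higher or lower by their values.

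**Figure D2:**
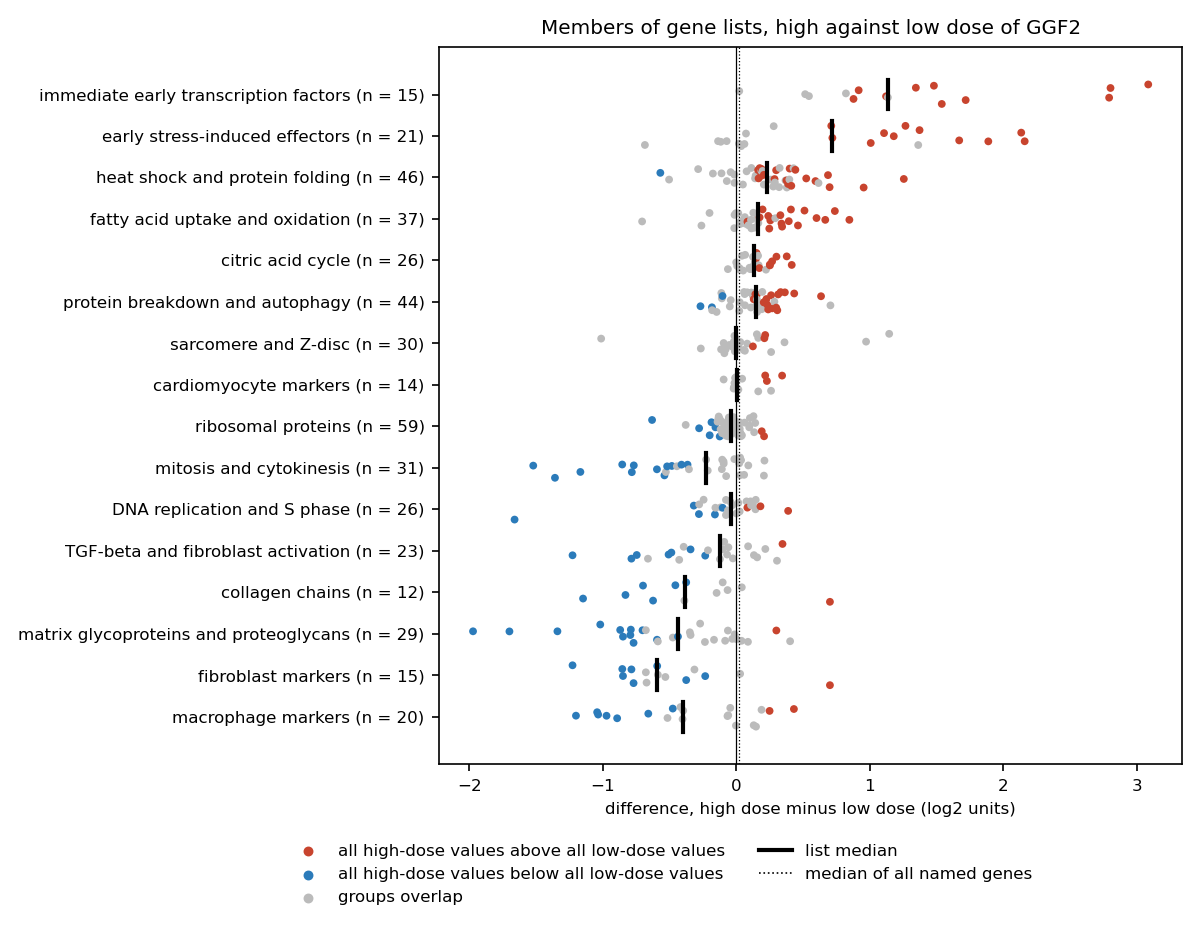
Difference between high and low dose in log2 units for the members of 16 gene lists (points; a gene by its brightest probe set). Red points have both high-dose values above all low-dose values, blue points both below, with no minimum size, and grey points overlap. By that rule 6297 of all 23999 probe sets were separated, 3179 higher and 3118 lower, so coloured points are common. Black bars are list medians and the dotted line is the median of all named genes, 0.02. Immediate early genes lie to the right with a median of 1.14 and fibroblast markers to the left with a median of -0.59.

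Immediate early genes, transcription factors whose genes answer a stimulus fast and without new protein synthesis, stood highest of all lists at the high dose. All 15 measured members were higher, with a median difference of 1.14. Of them 6 had an unadjusted p under 0.05 and 10 did not overlap between the doses at 1.5-fold or more, all on the higher side. FOS, the founding member of the AP-1 factors, measured 10.26, 7.81 and 9.11 in the low-dose animals and 12.25 and 12.05 in the high-dose animals. That difference is 3.09 ± 0.68 (SE), or 8.50-fold (limma adjusted p = 0.245). The nuclear receptor NR4A2 measured 7.71, 5.75 and 7.92 at the low dose against 10.38 and 9.47 at the high dose (2.79 ± 0.67, limma adjusted p = 0.258). In both genes the high-dose animals were above every other animal, with an SD of 0.14 in FOS and 0.64 in NR4A2 (n = 2), and low-dose replicate 2 was the lowest of its group.

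The same low-dose animal was far below the rest in the stress-induced factor ATF3, which measured 11.63, 7.64 and 11.57 at the low dose and 13.12 and 13.05 at the high dose. The growth regulator MYC behaved alike, with 8.44, 6.79 and 8.45 against 9.77 and 9.10. JUN, the partner of FOS in AP-1, was less uneven, with 10.61, 10.60 and 9.88 against 11.21 and 11.35. KLF4 differed by 1.12 and FOSL1 by 1.35 on the brightest probe set, with 0.35 and 0.01 on the other FOSL1 probe sets. IER5, a gene induced by growth factors and stress, was at 1.72 on its brightest probe set and 1.67 on the next. EGR1, a factor induced through ERK, separated the doses by little: 12.60, 11.17 and 12.33 at the low dose against 12.97 and 12.86 at the high dose, a difference of 0.88, with 2.39 and 0.23 on its other probe sets. NR4A3 was at 1.48, with 2.75 on another probe set, and KLF2 was level at 0.02 with values close to background.

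The mean level of the list was 7.59 to 9.30 in the low-dose animals and 9.89 to 10.08 in the high-dose animals. The untreated animals spanned 7.63 to 9.19, nearly the same width as the low-dose animals. The highest of each group were low-dose replicate 1 at 9.30 and untreated replicate 2 at 9.19, which carry consecutive tag numbers. Whether the tag numbers bear on these levels was not tested. Without low-dose replicate 1, the highest low-dose animal in most of these genes, the list median was 1.76 with 14 of 15 members higher. With the control gap as a covariate it was 1.36 with all 15 higher.

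Genes induced early that act in feedback, growth arrest and stress were higher along with the transcription factors. Of 21 measured members 17 were higher and 4 lower, with a median of 0.72; 10 had an unadjusted p under 0.05 on the higher side and 1 on the lower side, and 11 were separated upward. BTG2, an antiproliferative gene, measured 10.29, 8.18 and 9.06 at the low dose and 11.39 and 11.23 at the high dose (2.14 ± 0.53, limma adjusted p = 0.266). CYR61, a secreted matricellular protein, measured 10.42, 8.50 and 8.25 against 11.20 and 11.24 (2.16 ± 0.55, limma adjusted p = 0.268). GADD45B, a stress sensor, measured 7.92, 7.48 and 7.76 against 9.77 and 9.45, a tight pair of groups, and its second probe set gave 2.08. The phosphatase DUSP1, which switches off MAP kinases, was higher by 1.37, the RNA-destabilising protein ZFP36 by 1.67, the G-protein regulator RGS2 by 1.18 and the kinase SGK1 by 0.72. Other feedback genes stayed near 0: DUSP6 was at -0.11, SOCS3 at 0.06 and NFKBIA at 0.04. The cell cycle inhibitor CDKN1A went the other way, with 9.91, 9.27 and 9.99 at the low dose and 9.42 and 8.66 at the high dose, a difference of -0.68. Over the probe sets above the median level alone the list median was 1.11.

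**Figure D3:**
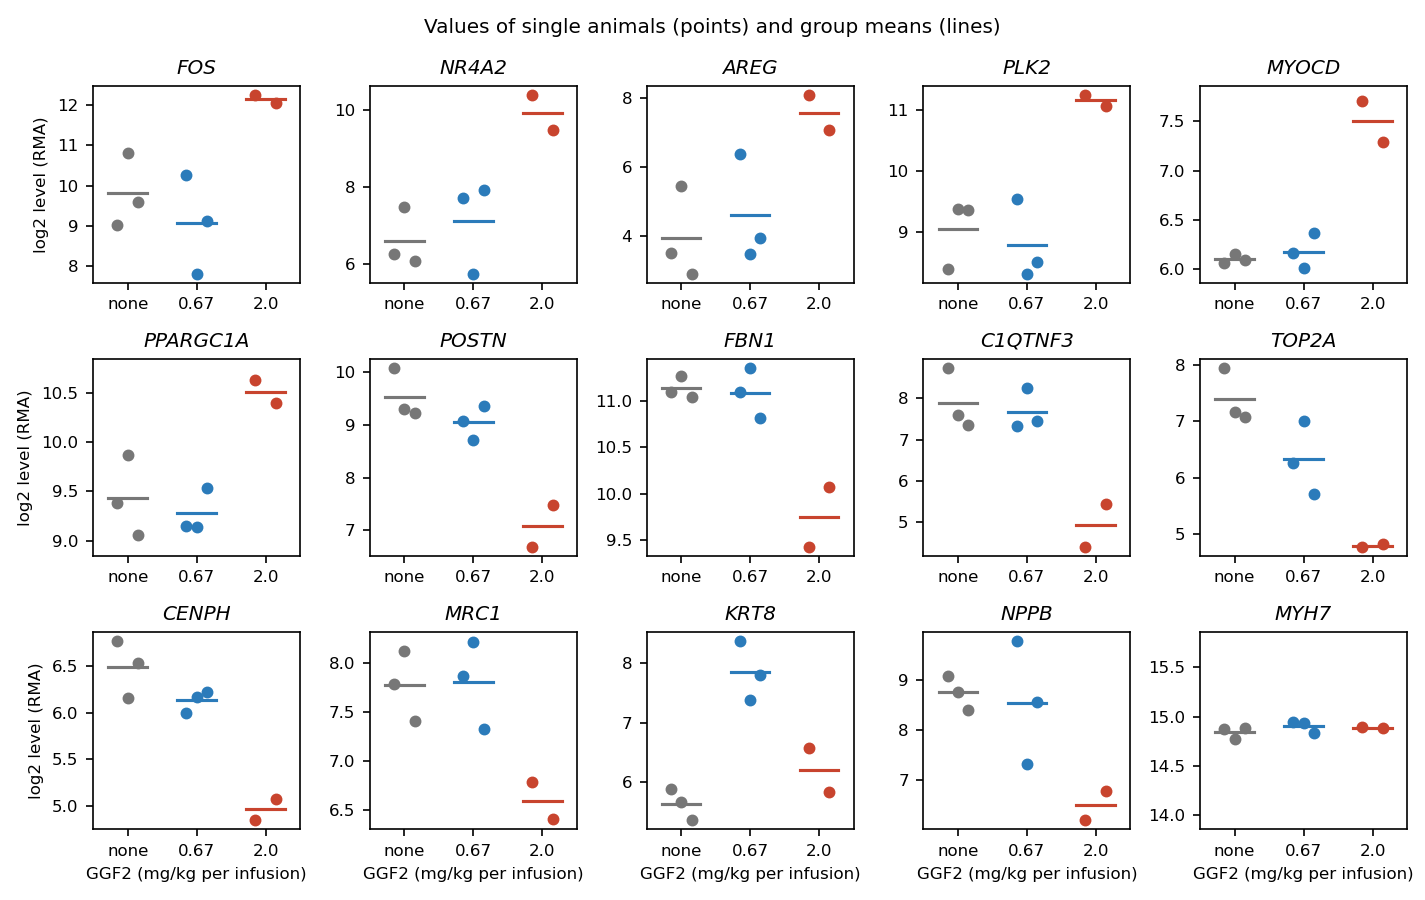
Log2 levels (RMA) of 15 genes in every animal (points) with group means (lines), by GGF2 dose in mg/kg per infusion; panels differ in scale. In FOS, PLK2, MYOCD and PPARGC1A both high-dose animals lie above the other 6, in POSTN, FBN1, C1QTNF3, TOP2A, CENPH, MRC1 and NPPB below them, and in KRT8 the 3 low-dose animals stand apart, while MYH7 is level.

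Other genes with small p on the higher side had varied roles. Polo-like kinase 2 (PLK2), an early-induced kinase, measured 9.54, 8.31 and 8.50 at the low dose and 11.25 and 11.07 at the high dose, 5.20-fold higher (2.38 ± 0.40, limma adjusted p = 0.149). RRAD, a small GTPase that restrains L-type calcium channels, measured 10.27, 10.98 and 10.78 against 12.34 and 11.99 (1.49 ± 0.29, limma adjusted p = 0.173). Tissue factor (F3), the trigger of blood clotting, measured 6.57, 6.95 and 7.66 against 8.46 and 9.90 (2.12 ± 0.43, limma adjusted p = 0.211). The doses did not overlap in any of these, though the high-dose animals differed by over 1 log2 unit in F3. The untreated animals, at 7.87 to 8.39 in F3, also lay above all low-dose animals and just below high-dose replicate 1. PLEK2, a pleckstrin family protein, was higher by 2.57 from levels of 3.95 to 4.66 at the low dose, close to background. The antiproliferative gene TOB1 was higher by 0.73. FBXW7, a ubiquitin ligase subunit that marks growth factors' nuclear targets such as MYC for breakdown, was higher by 0.84 on 1 probe set. It was at 0.53 on its brightest probe set and at 0.36 to 1.02 on the others. PPIL2 was higher by 0.88 on 1 probe set and by 0.09 to 0.21 on the others, and UTP15, which takes part in ribosome making, by 1.09.

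Of ERBB ligands and receptors 5 of 14 listed genes were measured; ERBB2, ERBB3, ERBB4 and NRG1 are not analysed here. Amphiregulin (AREG), a ligand of the EGF receptor, measured 6.39, 3.49 and 3.95 at the low dose and 8.09 and 7.07 at the high dose (2.97 ± 0.94, limma adjusted p = 0.352). Low-dose replicates 2 and 3 were near background, so the size of this difference is not exact. HBEGF, a ligand shared by the EGF receptor and ERBB4, measured 5.77, 4.26 and 5.11 against 5.99 and 6.12 (1.01 ± 0.42). The receptor EGFR was lower, with 7.05, 7.18 and 6.47 against 6.11 and 6.42, by 0.63 on the brightest probe set and 1.07 on the other, and none of the 3 overlapped between doses. TGFA was at 0.13 and EGF, below the lower quartile, at -0.03. Of 17 genes of the ERK and AKT pathways 9 were higher and 8 lower with a median of 0.04. AKT1 measured 8.02, 8.22 and 8.07 at the low dose and 7.81 and 7.58 at the high dose, a difference of -0.41, and PDPK1, the kinase that activates AKT, was at -0.27. No member of this list was separated by 1.5-fold.

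Myocardin (MYOCD), a coactivator of serum response factor that drives cardiac and smooth muscle genes, had the smallest p of any named gene. It measured 6.16, 6.01 and 6.36 in the low-dose animals, 7.71 and 7.29 in the high-dose animals and 6.06, 6.15 and 6.09 in the untreated ones. The difference of 1.33 ± 0.16, or 2.51-fold, has a confidence interval of 0.96 to 1.69 and narrowly missed the threshold (limma adjusted p = 0.0591). It passed in 3 of 16 alternatives: with array weights (limma adjusted p = 0.0472), with median centring (0.0478) and with renewed quantile normalization (0.0493). In the others it did not pass, among them the fit of the 5 treated arrays alone and the control gap as a covariate (limma adjusted p = 0.249). The list of myocardin and serum response factor targets was not higher as a group. Of 17 genes in it, MYOCD included, 5 were higher and 12 lower, with a median of -0.10, or -0.20 with the gap covariate. This list does not hold FOS or CYR61, which were higher at the high dose. Caldesmon (CALD1), which binds actin in smooth muscle, measured 10.37, 11.13 and 10.33 at the low dose and 9.64 and 9.98 at the high dose (-0.80, and -1.45 on a less bright probe set). The actin crosslinker FLNA was at -0.67 and the myosin light chain MYL9 at -0.35, both without overlap. Smooth muscle actin (ACTA2) measured 10.55, 12.54 and 10.96 against 10.69 and 11.04 and overlapped; its difference of -0.49 became 0.10 without low-dose replicate 2. CNN1, a smooth muscle protein, was at 0.53.

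Genes of the extracellular matrix, made largely by fibroblasts, were lower at the high dose. In whole tissue, fewer cells of a type and less RNA in each cell cannot be told apart. Of 29 matrix glycoproteins and proteoglycans 24 were lower and 5 higher, with a median of -0.44; 10 had an unadjusted p under 0.05 and 11 were separated by 1.5-fold or more, all lower. Periostin (POSTN), made by activated fibroblasts, measured 9.08, 8.71 and 9.36 at the low dose and 6.68 and 7.48 at the high dose, 3.92-fold lower (-1.97 ± 0.33, limma adjusted p = 0.146). Fibrillin-1 (FBN1), the backbone of microfibrils, measured 11.09, 11.35 and 10.82 against 9.43 and 10.07 (-1.34 ± 0.22, limma adjusted p = 0.145), and its second probe set gave -1.16. The proteoglycan versican (VCAN) measured 6.85, 7.68 and 7.62 against 5.34 and 6.03 (-1.70 ± 0.41), with -1.34 and 0.06 on its other probe sets above background. In each of these the doses were apart and high-dose replicate 1 was the lower of its pair.

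Other separated members were the calcification inhibitor MGP at -1.02, the small proteoglycans BGN at -0.87 and LUM at -0.85, fibronectin (FN1) at -0.79, SPARC at -0.79, the microfibril protein MFAP5 at -0.77, TNXB at -0.70 and NID2 at -0.59. Fibronectin measured 9.70, 10.32 and 9.43 at the low dose and 8.90 and 9.15 at the high dose, so its groups were close (limma adjusted p = 0.504). Decorin (DCN) overlapped at -0.68, and tenascin-C (TNC) and osteopontin (SPP1), matrix proteins of wound repair, were at -0.03 and -0.08. THBS1 and VTN were the highest members at 0.40 and 0.30. The list median was -0.18 without high-dose replicate 1, -0.20 without low-dose replicate 2 and -0.72 without high-dose replicate 2, so single animals set its size but not its sign. With the control gap as a covariate it was -0.64.

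Of 12 collagen chains 10 were lower, with a median of -0.38; 4 had an unadjusted p under 0.05 on the lower side, 4 were separated downward and 1 upward. COL8A1, a chain of short-chain collagen VIII, measured 6.88 ± 0.25 (SD, n = 3) in the low-dose and 5.73 ± 0.45 (SD, n = 2) in the high-dose animals without overlap (-1.15 ± 0.23, limma adjusted p = 0.192), while its 2 less bright probe sets above background gave -0.02 and 0.10. COL15A1, of basement membranes, was at -0.70, COL5A1 at -0.83, COL6A3 at -0.62 and COL1A2, a chain of the main fibrillar collagen, at -0.37. COL3A1, the other main fibrillar collagen, was the separated gene on the higher side, with 5.96, 5.37 and 6.41 at the low dose and 6.53 and 6.70 at the high dose (0.70 ± 0.38, limma adjusted p = 0.586). With probe sets averaged per gene, the collagen median was -0.17. Of 31 matrix proteases, inhibitors and crosslinking enzymes 20 were lower with a median of -0.09; the collagen chaperone SERPINH1 was at -0.38, the crosslinking enzyme LOXL1 at -0.77 with overlap, and the protease ADAMTS1, also an early-induced gene, at 0.71.

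C1QTNF3, a secreted relative of complement C1q and adiponectin, was among the genes with the largest differences on the lower side. It measured 7.34, 8.25 and 7.44 at the low dose and 4.40 and 5.44 at the high dose, 6.77-fold lower (-2.76 ± 0.47, limma adjusted p = 0.149). The untreated animals, at 7.36 to 8.73, lay with the low-dose animals.

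Markers of fibroblasts themselves were lower too. Of 15 markers 13 were lower with a median of -0.59; 7 had an unadjusted p under 0.05 on the lower side, 6 were separated downward and 1, COL3A1, upward. The lists share genes: 4 of the 15 markers are also matrix glycoproteins or proteoglycans (DCN, FBLN1, LUM and MFAP5), 2 are collagens and 3 are in the list of TGF-beta and fibroblast activation. THY1, a surface protein of fibroblasts, measured 9.72, 10.13 and 9.38 against 8.14 and 8.89 (-1.23 ± 0.27, limma adjusted p = 0.244), with -0.91 and 0.03 on its other probe sets. Dermatopontin (DPT) was at -0.85 and the filament protein vimentin (VIM) at -0.78, both separated. The mean level of the markers was 8.58 to 9.21 at the low dose, 8.14 to 8.44 at the high dose and 8.38 to 9.27 in untreated animals. The list median was -0.38 without low-dose replicate 2, the animal with the highest fibroblast marker level of its group, and -0.98 with the control gap as a covariate, where 14 of 15 were lower. The part of the fibroblast markers in the matrix differences was not tested.

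TGF-beta signalling is the main profibrotic pathway. Of 23 genes in a mixed list of its ligands and receptors and of fibroblast activation 17 were lower, with a median of -0.12 and 6 lower at an unadjusted p under 0.05. That median ran from -0.08 with median centring to -0.25 without low-dose replicate 3, and it was -0.20 with the gap covariate. The receptor TGFBR1 measured 7.87, 7.78 and 7.69 at the low dose and 7.23 and 7.31 at the high dose (-0.51 ± 0.13), the BMP receptor BMPR1A was at -0.48 and the ligand TGFB1 at -0.34, each without overlap. Fibroblast activation protein (FAP) measured 7.60, 7.91 and 7.82 against 6.85 and 7.21 (-0.74 ± 0.19). The ligands TGFB2 and TGFB3 were at 0.31 and -0.02, and SNAI1, a factor of epithelial-mesenchymal transition, was higher by 0.35.

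Macrophage markers were lower as well. Of 20 markers 15 were lower with a median of -0.40; 6 were lower and 1 higher at an unadjusted p under 0.05, and 6 were separated downward. LAPTM5, a lysosomal protein of blood cells, measured 7.60, 8.07 and 7.96 at the low dose and 6.97 and 6.99 at the high dose (-0.89 ± 0.16, limma adjusted p = 0.169). The mannose receptor MRC1 measured 7.87, 8.21 and 7.33 against 6.79 and 6.41 (-1.20 ± 0.28, limma adjusted p = 0.258), and the scavenger receptor CD163 measured 7.53, 7.85 and 7.12 against 6.55 and 6.38 (-1.03), with -0.99 on its other probe set. VSIG4 was at -1.04. The complement chains C1QA and C1QC were at -0.66 and -0.97. CD14 was at 0.15 and FOLR2 at 0.13, and ITGAM, the 1 marker higher at an unadjusted p under 0.05, lay close to background.

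The mean macrophage marker level lay between 6.17 and 6.59 in low-dose and between 6.00 and 6.08 in high-dose animals. The list median was -0.21 without high-dose replicate 2 and -0.26 without low-dose replicate 1. Lymphocyte markers were near 0, with a median of 0.06 over 15 genes, and those of neutrophils and mast cells were mostly near background, with MS4A2, a mast cell receptor chain, at -0.91. CXCL12, a chemokine of stromal cells, measured 7.10, 7.96 and 7.08 against 6.53 and 6.78 (-0.73).

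**Figure D4:**
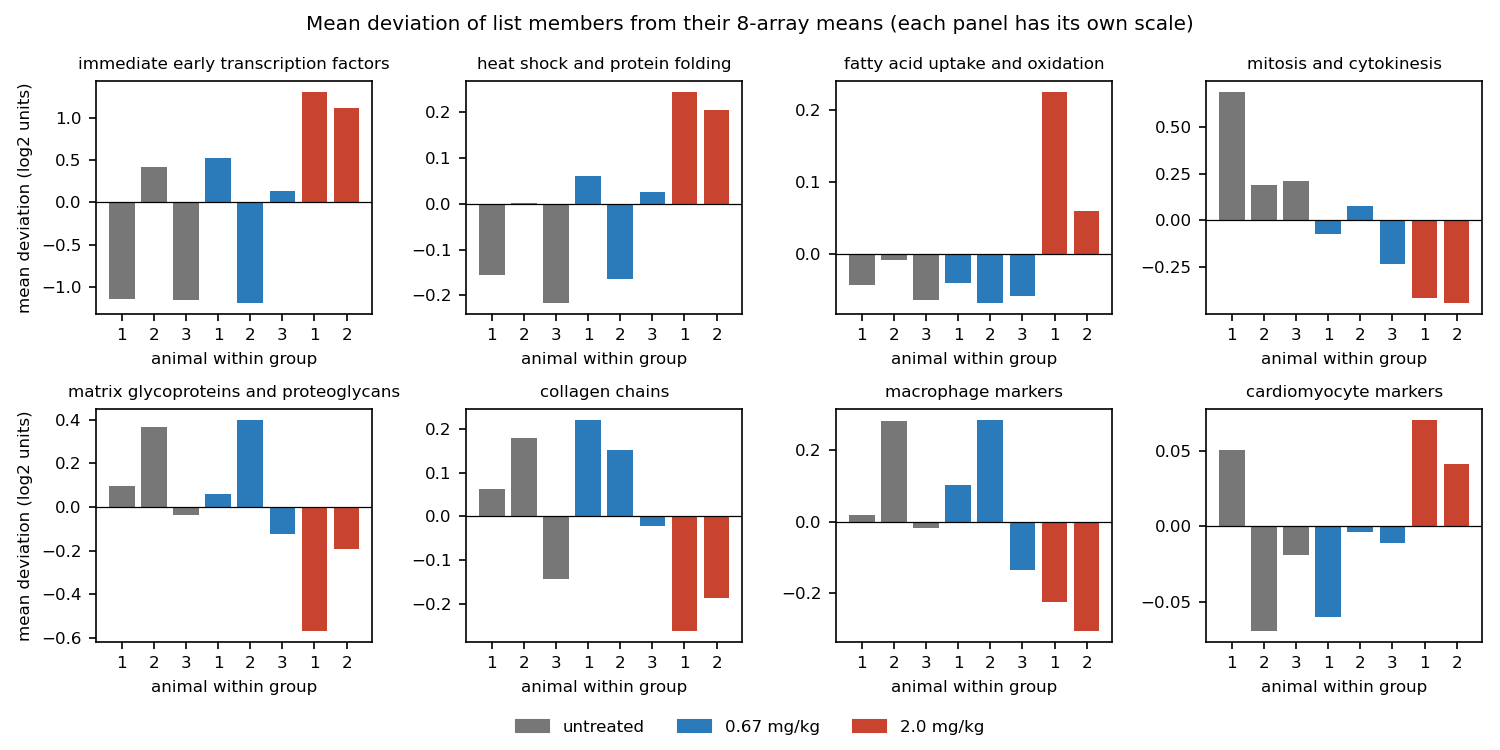
Mean deviation of the members of 8 gene lists from their means over the 8 arrays, in log2 units, for each animal (bars from 0, coloured by group; panels differ in scale). In immediate early genes the low-dose animals span -1.19 to 0.52 and the high-dose animals lie at 1.11 to 1.30, and in macrophage markers the high-dose animals lie at -0.31 to -0.23.

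Genes of mitosis were lower at the high dose while those of DNA replication were mostly level. Of 31 genes of mitosis and cytokinesis 23 were lower, with a median of -0.22; 7 had an unadjusted p under 0.05 and 7 were separated, all on the lower side. The centromere protein CENPH measured 6.00, 6.17 and 6.22 at the low dose and 4.85 and 5.08 at the high dose (-1.17 ± 0.18, limma adjusted p = 0.139). Topoisomerase II alpha (TOP2A), which untangles chromosomes, measured 6.26, 7.01 and 5.71 against 4.78 and 4.83 (-1.52 ± 0.37, limma adjusted p = 0.262). Securin (PTTG1), which holds back chromosome separation, measured 5.84, 5.67 and 5.83 against 5.15 and 5.23 (-0.59 ± 0.15). The doses did not overlap in these 3 genes. In TOP2A the untreated animals, at 7.07 to 7.94, were above both doses.

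RACGAP1, needed for cytokinesis, was at -1.36, cyclin B1 (CCNB1) at -0.78 and the kinetochore protein CENPF at -0.85, with high-dose values near background in RACGAP1 and CENPF. The mean level of the mitosis list was 5.39 to 5.69 at the low dose, 5.18 to 5.20 at the high dose and 5.81 to 6.30 in untreated animals. Its median was -0.34 without low-dose replicate 1, -0.36 over probe sets above the median level and -0.48 with the control gap as a covariate. Of 26 genes of DNA replication 14 were lower and 12 higher with a median of -0.03. The PCNA-associated factor PCLAF stood apart, with 5.82, 6.32 and 5.57 against 4.54 and 3.95 (-1.66 ± 0.38, limma adjusted p = 0.256). The replication clamp PCNA was at -0.28, and the clamp loader RFC3 was higher by 0.39. The ribonucleotide reductase subunit RRM2 was near background at both doses, with 3.98, 4.15 and 4.17 against 3.92 and 4.13, while the untreated animals had 4.95 to 6.05.

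Heat shock proteins and other chaperones were higher by small amounts. Of 46 genes 37 were higher and 9 lower with a median of 0.23; 6 were higher and 1 lower at an unadjusted p under 0.05, and 5 were separated upward at 1.5-fold. HSPA6, a strictly inducible HSP70, measured 6.22, 6.01 and 5.92 at the low dose and 6.83 and 7.78 at the high dose (1.26 ± 0.28, limma adjusted p = 0.244). The small heat shock protein of muscle HSPB3 measured 9.40, 9.34 and 9.23 at the low dose and a mean of 10.02 at the high dose (0.70 ± 0.15, limma adjusted p = 0.244). HSPB1 was at 0.59 and the constitutive HSPA8 at 0.44. The cochaperone BAG3, which guards sarcomere proteins, measured 11.54, 9.98 and 10.93 against 11.78 and 11.77 on its brightest probe set (0.96) and differed by 1.35 on another; PTGES3, the HSP90 cochaperone p23, differed by 0.72 and by 0.37 on its brightest probe set. BAG5 was lower by 0.57. The endoplasmic reticulum stress list had a median of 0.06 over 16 genes, with CRELD2 at -0.45 and PPP1R15A, which restores translation after stress, at 0.58.

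Most measured genes of fatty acid metabolism were higher by small amounts. Of 37 genes of fatty acid uptake and oxidation 31 were higher with a median of 0.17; 8 were higher and 0 lower at an unadjusted p under 0.05 in limma, and 4 were separated upward. PPARGC1A, the coactivator PGC-1 alpha that drives mitochondrial and fatty acid genes, measured 9.15, 9.14 and 9.54 at the low dose and 10.63 and 10.40 at the high dose (1.24 ± 0.23, limma adjusted p = 0.173). Its partner PPARA was at 0.64 from levels near background. The list of energy regulators that holds both was mixed, with 11 of 18 higher and a median of 0.07, or 9 higher and 9 lower with a median of 0.02 under the gap covariate. OXCT1, the enzyme that lets heart muscle use ketone bodies, measured 9.62, 9.39 and 10.15 against 10.58 and 10.56 (0.85 ± 0.22), with 0.74 on another probe set. ETFDH, which passes electrons from fatty acid oxidation to the respiratory chain, differed by 0.86 and by 0.51 on its brightest probe set.

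The acyl-CoA synthetases ACSL3 and ACSL1, which activate fatty acids, were at 0.67 and 0.60, and ECH1, an auxiliary enzyme of beta-oxidation, measured 9.59, 9.45 and 8.98 against 10.30 and 9.86 (0.74). ADHFE1, a mitochondrial enzyme outside the list, measured 10.04, 9.93 and 10.08 against 10.72 and 10.62 (0.65 ± 0.12, limma adjusted p = 0.169). The mean level of the list was 9.61 to 9.63 at the low dose, 9.74 to 9.90 at the high dose and 9.61 to 9.67 in untreated animals. Of 26 citric acid cycle genes 25 were higher, by a median of 0.14 that was 0.06 with the control gap as a covariate, and SDHB, a subunit of succinate dehydrogenase, was the 1 with an unadjusted p under 0.05 (0.42, with -0.09 on its other probe set). Of 50 genes of oxidative phosphorylation 35 were higher with a median of 0.06, or 0.03 with the gap covariate, and none was separated by 1.5-fold. That count depended on the scaling, with 28 higher and 22 lower after renewed quantile normalization and 44 and 6 with median centring. Glycolysis had a median of 0.06 over 22 genes, with the muscle glycogen phosphorylase PYGM at -0.55 and LDHA, which makes lactate, at -0.47. The kinase subunit PRKAB2 of AMPK, the cell's energy sensor, was at -0.49.

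Of 44 genes of protein breakdown and autophagy 35 were higher with a median of 0.15, or 0.09 after renewed quantile normalization; 6 were higher and 0 lower at an unadjusted p under 0.05 in limma. They were the autophagy genes ATG7 (0.64) and MAP1LC3B (0.44) and the proteasome subunits PSMC3 (0.37), PSMC1 (0.32), PSMA5 (0.31) and PSMC2 (0.30). Of 36 antioxidant genes 26 were higher with a median of 0.09. Peroxiredoxin 5 (PRDX5) measured 8.66, 8.55 and 8.46 against 9.01 and 9.05, whereas GPX1, glutathione peroxidase 1, was lower at 9.30, 10.18 and 10.22 against 6.77 and 9.10 (-1.96 ± 0.59), a difference carried mostly by high-dose replicate 1. Ribosomal proteins, 59 genes, had a median of -0.04, with RPL3 at -0.63.

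Genes of the contractile apparatus differed little in the median. The 14 cardiomyocyte markers had a median of 0.01, with MYH7, the main ventricular myosin, at -0.02 (14.94, 14.93 and 14.83 against 14.89 and 14.88, near the top of the scale) and the calcium pump ATP2A2 at -0.04 on its brightest probe set. Of the other ATP2A2 probe sets 1 was lower without overlap at -0.39, and the others were at -0.14 and -0.02. The MYH7 and ATP2A2 differences on the brightest probe sets were within 0.03 of 0 on the other side in some settings. For MYH7 these were median centring, the covariate and the fit without low-dose replicate 1. For ATP2A2 it was the fit without low-dose replicate 3. With renewed quantile normalization MYH7 was at 0.00. FABP3, the heart's fatty acid binding protein, was the 1 marker with an unadjusted p under 0.05 at 0.34. The 30 sarcomere genes had a median of 0.00 and none had an unadjusted p under 0.05.

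The natriuretic peptides, secreted by stretched heart muscle, were lower in the mean. NPPB measured 9.77, 7.32 and 8.56 at the low dose and 6.21 and 6.80 at the high dose (-2.04 ± 0.59, limma adjusted p = 0.305) without overlap. NPPA measured 8.05, 7.44 and 8.28 against 8.21 and 6.09 and overlapped; its difference of -0.77 became 0.29 without high-dose replicate 2. RCAN1, a calcineurin inhibitor that calcineurin itself induces, overlapped at 1.51 on its brightest probe set and was separated at 2.38 on the other, and ANKRD1, a stretch-responsive muscle protein, overlapped at 0.36.

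Keratin 8 (KRT8), an intermediate filament of epithelial and mesothelial cells, showed another pattern. It measured 8.37, 7.39 and 7.80 in low-dose animals, 6.58 and 5.84 in high-dose animals and 5.89, 5.66 and 5.36 in untreated animals, so the low-dose animals stood above all others (-1.64 ± 0.31, limma adjusted p = 0.173). Its partner KRT18 was at 0.02, KRT19 at -0.21 and the epicardial factors WT1 and TCF21 at 0.29 and -0.23. The phosphatase PTPN18 had its highest mean at the low dose, with 10.14, 9.40 and 8.24 against 6.79 and 6.51 (-2.61 ± 0.48, limma adjusted p = 0.169). Untreated animals, at 8.08 to 8.89, overlapped the low-dose animals, and both high-dose animals lay below all others. CREBZF, a nuclear factor of the ATF family, measured 9.02, 8.72 and 8.69 against 7.79 and 7.38 on 1 probe set (-1.22 ± 0.16, limma adjusted p = 0.0832). It was at -0.57 on its brightest probe set and at -0.18 and -0.32 on the others.

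Among vessel cells, smooth muscle and pericyte markers were lower in 10 of 13, with a median of -0.28. RGS5, a pericyte gene, measured 10.94, 11.25 and 10.82 against 9.61 and 10.56 (-0.92), and MCAM was at -0.71; without high-dose replicate 1 the median was -0.16, without low-dose replicate 2 it was -0.15 and without high-dose replicate 2 it was -0.47. With probe sets averaged per gene, it was -0.12. Endothelial markers had a median of -0.02 over 23 genes. Within them the adhesion molecule ICAM2 measured 7.04, 6.93 and 6.69 against 6.11 and 6.40 (-0.63), the angiopoietin receptor TEK was at -0.61 and PECAM1 at -0.49 (-0.02 on its other probe set), while VWF was at -0.25, CDH5 at 0.09 and NOS3 at 0.24. The TEK ligand ANGPT2 was at -0.64 and VEGFA at 0.09.

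Some genes chosen by the naming rule gave different answers on different probe sets. The ornithine decarboxylase antizyme OAZ1 measured 11.62, 12.66 and 12.33 at the low dose and 8.71 and 10.14 at the high dose on 1 probe set (-2.78 ± 0.46, limma adjusted p = 0.146), and 11.56, 11.81 and 11.85 against 11.76 and 11.71 on its brightest (0.00). The class I light chain B2M was at -2.53 on 1 of 9 probe sets and at 0.00 on the brightest. For these 2 genes no direction is given. ZCCHC8, an RNA-processing factor, was at -0.97 and at -0.70 on its brightest probe set. MFSD7, a transporter, was at -0.81 and LOC100624077 at -1.17, each on its 1 probe set.

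In further genes named above by their brightest probe set, dimmer probe sets above background gave other values. Nearer to 0 were COL5A1 at -0.48 to 0.26, SPARC at -0.08, VSIG4 at -0.19 and 0.00, HSPA8 at -0.05 to -0.04, PYGM at -0.19 to 0.00, MCAM at -0.32 and MS4A2 at -0.02. FN1 and AKT1 had the opposite sign at 0.23 and 0.24. Larger values on at least 1 probe set were found for ANKRD1 at 1.49, for VEGFA at 0.20 and 0.52, and for THBS1 at up to 1.05, where the other dim probe sets gave 0.20 and 0.64.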

How the data were processed

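RNA from left ventricle of 8 pigs was hybridised to Affymetrix porcine arrays, 1 array per animal. The deposited values are log2 expression levels that the authors computed with RMA in Partek 6.6, per the submitters' processing notes; RMA corrects background, equalises the arrays' distributions and summarises probes. Of 24123 probe sets 124 are controls, and 23999 were tested: 10069 carry 1 gene symbol, 198 several and 13732 none in the platform annotation. Scanner intensities were not used here, and the number of arrays limits the precision.

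limma 3.58.1 in R 4.3.3 fitted the 3 group means to all 8 arrays (residual degrees of freedom, 5) and tested high minus low dose with Benjamini-Hochberg adjustment over all 23999 probe sets. Errors are standard errors from this fit and intervals cover 95%. Its p-values rest on the spread between animals within groups, pooled over the 3 groups, the untreated one included. That spread is drawn towards the spread of the other probe sets (prior degrees of freedom, 3.5). Scripts were tested on simulated data. A gene stands by its brightest probe set with 1 symbol. Named genes were up to 15 per direction with 1 symbol, first those passing and then the smallest p among separated probe sets of at least 1.5-fold in the brighter range (here the probe set with the smallest p stands), up to 5 members per list, and a short list of genes of interest; other members were picked for contrast after their values were seen. The 43 gene lists (1398 genes, 899 measured), members and rules were chosen with earlier results of these data known. Replicate numbers follow the order in which the samples are listed, and they pair no animals. Promoter sequences were not used here.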

Additional observations from a re-analysis of the deposited data

How the results depend on the processing

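The 6 calls were 0 in the fit of the 5 treated arrays and with the control gap as a covariate, 1 over probe sets above the median level, 10 with array weights and 14 at an adjusted p under 0.10; median centring gave 9, renewed quantile normalization 7, and a trended or robust variance prior 6 each. Leaving out 1 animal gave 0 to 7 calls in limma, with 1508 to 2644 probe sets at an unadjusted p under 0.05 and 1190 to 1872 separated ones. Against 2455 at an unadjusted p under 0.05, 1499 were found among probe sets above the median level and 2150 with the covariate. Against 1066 separated probe sets, 248 were found at 2-fold and 6297 with no minimum difference. Higher probe sets made up 42.9% of those at an unadjusted p under 0.05, 57.2% with median centring and 49.8% with renewed quantile normalization. Among separated probe sets the shares were 32.4%, 41.6% and 38.3%, and 50.5% with no minimum. The difference in the gap was -0.68 for the first actin pair alone. Of 746 alternatives for 47 genes, 8 changed sign, counting 1 value of 0.00 for MYH7. MYH7 was at 0.024 with median centring, 0.00 with renewed quantile normalization and 0.014 with the covariate, and ran from -0.055 to 0.0031 when 1 animal was left out. On leaving out 1 animal RRM2 ran from -0.18 to 0.032 (without high-dose replicate 1), NPPA from -1.83 to 0.29 (without high-dose replicate 2), ACTA2 from -0.89 to 0.10 (without low-dose replicate 2) and ATP2A2 from -0.098 to 0.028 (without low-dose replicate 3). The cause was not tested. Of 731 alternatives for the 43 lists, 63 changed the sign of the median. No paired analysis was possible, because each array held RNA from a different pig and each pig belonged to 1 group.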

Other observations

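Further gene groups not described above include the circadian clock. Of 7 measured clock genes 3 were separated upward by 1.5-fold or more. NFIL3, a repressor of clock output, measured 9.58, 8.75 and 8.76 at the low dose and 9.96 and 10.40 at the high dose (1.15), the repressor BHLHE40 was at 0.86 and the core activator ARNTL at 0.66. The mean level of the list was 6.97 to 7.35 in low-dose, 7.52 to 7.54 in high-dose and 6.93 to 7.59 in untreated animals. The other 4 members overlapped, and the list median of -0.01 changed sign in 8 of 17 alternatives. Of 14 glucocorticoid-responsive genes 9 were lower, with a median of -0.08 and TSC22D3 at -0.67. Interferon-response and antigen-presentation genes had a median of 0.07 over 36 genes, with none at an unadjusted p under 0.05 in limma. Single animals set that median: it was 0.29 without high-dose replicate 1 and -0.21, with 28 genes lower, without high-dose replicate 2. Among 21 apoptosis genes the mitochondrial nuclease ENDOG measured 7.97, 8.04 and 8.17 against 8.63 and 8.60 (0.55 ± 0.11, limma adjusted p = 0.201). ALAD, an enzyme of heme synthesis, measured 7.42, 7.50 and 7.71 against 7.94 and 8.20 (0.53 ± 0.13). Of 5 erythrocyte markers 4 were lower, with a median of -0.50; HBM was at -0.57, ALAS2 at -0.54 and HBB at 0.22. That median was -0.31 without high-dose replicate 1, -0.29 without high-dose replicate 2, and -0.18 over the 2 markers with probe sets above the median level.

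The kind of probe set moved with direction, in a split chosen after seeing the data. Of 8238 probe sets with an A ending and no gene symbol, 0.85% were separated upward and 3.87% downward at 1.5-fold or more. Of 6686 with an S ending and a symbol the shares were 1.96% and 2.09%. With the control gap as a covariate, the first kind had 3.08% higher and 5.92% lower at an unadjusted p under 0.05, against 2.39% and 7.47% without it.

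Probe sets of a gene mostly gave like values. In 917 genes with at least 2 probe sets above the median level, the median range of their differences was 0.25. It was over 1 log2 unit in 17 genes and over 2 in 4: OAZ1, B2M, EGR1 and LMO4. LMO4, a LIM-domain transcriptional cofactor, measured 8.59, 9.53 and 8.90 at the low dose and 7.25 and 6.73 at the high dose on 1 probe set (-2.02) and 11.85, 12.51 and 12.35 against 12.54 and 12.63 on its brightest (0.35).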
